A study of Caenorhabditis elegans with 12 samples.

Results

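The genes irg-4, irg-5, dod-17, dod-21, dod-22 and dod-24 of Caenorhabditis elegans were followed across 12 whole-body RNA libraries. They were chosen by name, as 6 of 46934 gene entries in the counted annotation, and all 6 had enough counts to be among the 16259 genes tested. The libraries came from 4 genotypes with 3 independent harvests each. These were the double mutant eat-2(ad1116); dis-3(L75Q) (strain IJ2290), the single mutants dis-3(L75Q) (VC40130) and eat-2(ad1116) (IJ173), and wild type (N2). All animals were prefertile adult hermaphrodites grown at 20 °C on the Escherichia coli strain OP50, the usual laboratory food. The RNA exosome, which trims and removes RNA, has DIS-3 as its catalytic ribonuclease. eat-2 encodes part of a receptor for acetylcholine in the pharynx, the feeding organ, and its mutants eat slowly and serve as a genetic model of dietary restriction. Each genotype is 1 strain, so an allele and the other variants of its strain cannot be told apart. VC40130 belongs to a large collection of mutagenised strains, which carry many sequence changes besides the named one.

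The irg class takes its name from infection response and the dod class from genes downstream of DAF-16, the FOXO transcription factor of insulin signalling. All 6 genes belong to a family that encodes proteins with a CUB-like domain, many of them made in the intestine and induced when the animal meets pathogenic bacteria. irg-4 and irg-5 are known targets of the p38 kinase PMK-1, which acts with TIR-1, NSY-1 and SEK-1 in intestinal innate immunity. The dod genes described here were first grouped by their lower expression in long-lived daf-2 insulin receptor mutants. dod-22 and dod-24 are in common use as readouts of the intestinal response to bacteria. No infection was part of the design, so the levels below are those of animals on OP50.

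Coordinates are 1-based on WBcel235. The 4 dod genes lie together on chromosome IV within 41.6 kb, with dod-21 at 12936738 to 12937988, dod-24 at 12940106 to 12941354, dod-22 at 12965374 to 12967392 and dod-17 at 12976303 to 12978343. The gap is 2.12 kb between dod-21 and dod-24, 24 kb between dod-24 and dod-22, and 8.91 kb between dod-22 and dod-17. dod-24 is on the minus strand and the other 3 are on the plus strand. irg-4 is on the same chromosome, 499 kb away, at 12435833 to 12438236 on the plus strand. irg-5 is on chromosome V at 13737010 to 13738474 on the minus strand. No annotated gene overlaps any of them. Their expected counts were whole numbers in 12 of 12 libraries except for dod-21, where they were whole in 6 of 12, so dod-21 shares reads with similar genes and its values are uncertain.

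The libraries held between 31812386 and 32773817 counts. The intestine, where these genes are mainly expressed, was represented in all libraries: each of 15 intestinal marker genes was above 0 in all 12. Their summed level was 5330 to 5440 CPM (counts scaled to the size of the library) in the double mutant. In the single mutants it was 5220 to 6290 CPM with dis-3(L75Q) and 3970 to 6320 CPM with eat-2(ad1116), and in wild type 4830 to 5320 CPM. In whole animals, fewer cells of a type and less RNA per cell cannot be told apart. The libraries differed in stage within and between genotypes. The mean log2 CPM of 16 molting genes was taken, the mean of 16 oocyte and eggshell genes was subtracted, and the difference is called the stage score. It was 1.26, 0.60 and 0.57 in replicates 1 to 3 of the double mutant. It was 2.32, 1.79 and -0.98 in dis-3(L75Q), -1.24, 2.17 and 2.29 in eat-2(ad1116), and -2.87, 0.38 and -3.76 in wild type. Within their genotypes, eat-2(ad1116) replicate 1, wild type replicate 2 and dis-3(L75Q) replicate 3 thus stood apart, and results are given with and without these 3. Without them, the wild type libraries left had scores of -2.87 and -3.76 and all other libraries left had scores of 0.57 to 2.32. That omission therefore does not separate stage from genotype in any comparison that uses wild type. Stage also moved with genotype in each comparison with wild type. The median log2 fold change of the molting genes over wild type was 1.55 in the double mutant, 1.74 in dis-3(L75Q) and 1.35 in eat-2(ad1116), and that of the oocyte and eggshell genes was -0.93, -1.23 and -1.06. Between the double mutant and the single mutants these medians lay between -0.16 and 0.29.

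irg-5 varied most between genotypes. It lay at 3.90, 2.35 and 2.54 CPM in the double mutant, at 74.5, 72.4 and 42.3 CPM in dis-3(L75Q), at 0.711, 3.07 and 2.02 CPM in eat-2(ad1116), and at 15.6, 13.2 and 9.01 CPM in wild type. All dis-3(L75Q) libraries were above all wild type libraries, and all libraries with the eat-2 allele were below them. The double mutant and eat-2(ad1116) overlapped.

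The other PMK-1 target, irg-4, overlapped wild type in the libraries with the eat-2 allele. Its values were 49.7, 37.5 and 37.4 CPM in the double mutant, 176, 207 and 114.9 CPM in dis-3(L75Q), 12.2, 38.4 and 45.9 CPM in eat-2(ad1116), and 48.0, 41.8 and 47.5 CPM in wild type. Only the dis-3(L75Q) libraries stood clear of the rest. The other 3 genotypes overlapped, and eat-2(ad1116) replicate 1 was the lowest library of all.

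dod-24, like irg-5, was highest in dis-3(L75Q), next in wild type and lowest in the libraries with the eat-2 allele. Its values were 12.95, 8.44 and 9.21 CPM in the double mutant, 142, 133 and 92.9 CPM in dis-3(L75Q), 10.3, 12.0 and 11.9 CPM in eat-2(ad1116), and 76.2, 40.6 and 27.4 CPM in wild type. The wild type libraries were spread widely, yet none reached the dis-3(L75Q) range and none came down to the range of the libraries with the eat-2 allele. dod-17 had the order of genotype means of dod-24 over a narrower range, at 15.5, 14.4 and 13.2 CPM in the double mutant, 84.4, 83.9 and 60.6 CPM in dis-3(L75Q), 11.6, 18.6 and 20.3 CPM in eat-2(ad1116), and 58.2, 38.2 and 43.0 CPM in wild type. The lowest dis-3(L75Q) library of dod-17 was just above the highest wild type library.

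dod-22 was high in dis-3(L75Q) alone, and its double mutant values lay close together. It lay at 6.80, 6.80 and 6.76 CPM in the double mutant, at 24.5, 24.5 and 18.2 CPM in dis-3(L75Q), at 7.52, 8.74 and 8.52 CPM in eat-2(ad1116), and at 8.85, 4.05 and 5.54 CPM in wild type. The dis-3(L75Q) libraries stood above all others, eat-2(ad1116) and wild type overlapped, and so did the double mutant and wild type. dod-21 was barely detected, with 0 to 55 counts per library: 9, 9 and 22 in the double mutant, 0, 55 and 14 in dis-3(L75Q), 0, 23 and 0 in eat-2(ad1116), and 29, 45 and 8 in wild type. A count of 0 allows up to 3 counts, and the genotypes overlapped in every comparison.

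**Figure D1:**
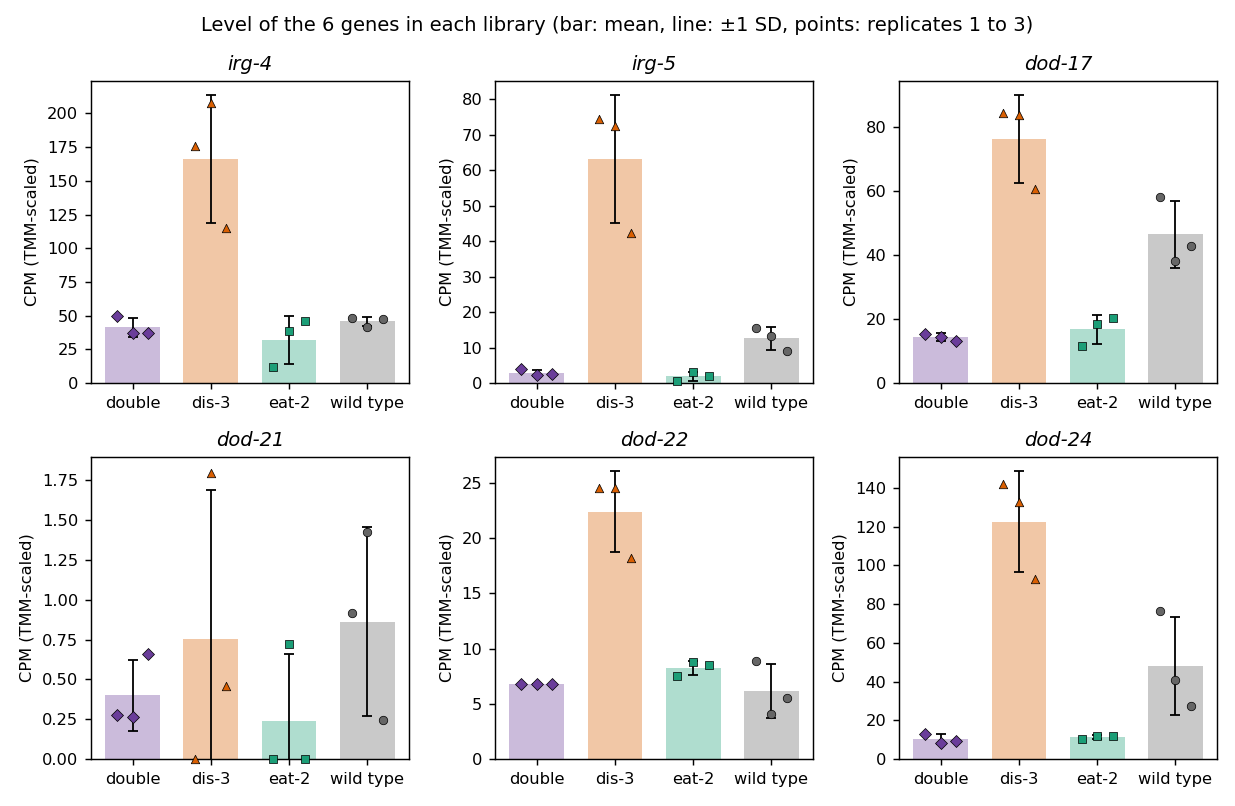
Level of each gene in CPM (TMM-scaled) in each library, with 1 panel per gene and its own axis starting at 0. Points are libraries, bars and error bars are the mean ± SD of 3 libraries, and genotypes run from the double mutant on the left to wild type on the right. dis-3(L75Q) is the highest genotype for all genes but dod-21, and the libraries with the eat-2 allele lie below wild type for irg-5, dod-17 and dod-24.

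Per kilobase of exon, which allows levels of different genes to be set side by side, dod-24 and irg-4 were the most abundant in wild type, at 41.6 and 41.5 CPM per kb, with dod-17 at 40.8. irg-5 followed at 11.3, dod-22 at 4.90 and dod-21 at 0.757 CPM per kb. In dis-3(L75Q) the order was irg-4 at 151, dod-24 at 106, dod-17 at 66.9, irg-5 at 56.4, dod-22 at 17.9 and dod-21 at 0.660 CPM per kb. With the eat-2 allele irg-4 led, at 37.7 CPM per kb in the double mutant and 29.2 in eat-2(ad1116), and dod-17 came next at 12.61 and 14.8. irg-5 was then below dod-22, at 2.63 against 5.41 CPM per kb in the double mutant and at 1.73 against 6.58 in eat-2(ad1116).

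The comparison of dis-3(L75Q) with wild type asks how the strain with the exosome allele differs when feeding is normal. irg-5 and dod-22 rose. irg-5 averaged 63.1 ± 17.99 CPM in dis-3(L75Q) and 12.59 ± 3.33 CPM in wild type (SD, n = 3 each), which is 5.01-fold higher (log2 2.32 ± 0.43 SE, adjusted p = 0.043 by the edgeR quasi-likelihood test with Benjamini-Hochberg adjustment over all tested genes, as throughout). dod-22 averaged 22.4 ± 3.67 CPM in dis-3(L75Q) and 6.15 ± 2.45 CPM in wild type, which is 3.64-fold higher (log2 1.87 ± 0.25, adjusted p = 0.0064). These 2 of 6 compare with 0.56% of all tested genes called in this comparison and 0.32% called higher. The other 3 well-counted genes were above the wild type range in all dis-3(L75Q) libraries without passing the test: irg-4 had a log2 fold change of 1.86 ± 0.40 (adjusted p = 0.09), dod-24 one of 1.35 ± 0.32 (adjusted p = 0.14) and dod-17 one of 0.71 ± 0.22 (adjusted p = 0.27). The libraries of the pair did not overlap for 5 of 6 genes, against 18.9% of all tested genes, and the median log2 fold change was 1.6, against 0.02 over all tested genes. For dod-21 the interval of the difference was too wide to read, at -2.69 to 2.30 on the log2 scale.

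The call of irg-5 was close to the threshold. It was lost with the stage score as a covariate (log2 1.51, adjusted p = 0.30), in a fit of the 6 libraries compared (adjusted p = 0.054), and without any one of wild type replicates 1 or 3, dis-3(L75Q) replicates 1 or 2, eat-2(ad1116) replicate 3 or the 3 double mutant libraries (adjusted p = 0.067 to 0.18). The call of dod-22 was kept with the covariate (log2 1.88, adjusted p = 0.036) and was lost in the fit of 6 libraries (adjusted p = 0.15). Without the 3 libraries that stood apart in stage, 5 of 6 genes passed, all but dod-21, but so did 51.6% of all genes. Stage and genotype are not separated in that fit. With the covariate the log2 fold change was 1.09 ± 0.45 for irg-4 (adjusted p = 0.83), 1.08 for dod-24 (adjusted p = 0.81) and 0.42 for dod-17 (adjusted p = 1). irg-4 passed in the fit of 6 libraries (adjusted p = 0.041), where it was the 1 gene of the 6 called, and without eat-2(ad1116) replicate 1 (adjusted p = 0.0022) or wild type replicate 2 (adjusted p = 0.048). dod-24 passed without wild type replicate 1 (log2 1.88, adjusted p = 0.017).

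The comparison of eat-2(ad1116) with wild type shows the genes under restricted feeding. irg-5, dod-24 and dod-17 fell. irg-5 averaged 1.94 ± 1.18 CPM in eat-2(ad1116) and 12.59 ± 3.33 CPM in wild type, a level 6.53-fold lower (log2 -2.71 ± 0.45, adjusted p = 0.0083). dod-24 averaged 11.4 ± 0.996 CPM in eat-2(ad1116) and 48.1 ± 25.2 CPM in wild type, 4.22-fold lower (log2 -2.08 ± 0.33, adjusted p = 0.0067). dod-17 averaged 16.9 ± 4.60 CPM in eat-2(ad1116) and 46.5 ± 10.4 CPM in wild type, 2.76-fold lower (log2 -1.46 ± 0.23, adjusted p = 0.0059). Of all tested genes 6.21% were called and 2.12% were called lower. The libraries did not overlap for the same 3 genes, against 21.7% of all tested genes, and the median log2 fold change of the 6 was -1.66, against -0.01 over all.

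irg-4 and dod-22 did not pass the test in eat-2(ad1116). The log2 fold change was -0.51 ± 0.39 for irg-4 (95% interval -1.27 to 0.25) and 0.43 ± 0.25 for dod-22 (-0.06 to 0.91), and the difference between genes was not tested. The value of irg-4 moved to -1.38 ± 0.47 with the stage covariate (adjusted p = 0.15) and to -0.10 ± 0.23 without eat-2(ad1116) replicate 1 (adjusted p = 0.76). dod-21 stood at -1.86 ± 1.40, with 2 of 3 eat-2(ad1116) libraries at 0 counts. The 3 calls were kept with the stage covariate (adjusted p = 0.0021 for irg-5, 0.0075 for dod-17 and 0.018 for dod-24). They were also kept without the 3 libraries that stood apart, where 58.6% of all genes were called and stage is not separated from genotype. All 3 were lost in the fit of the 6 libraries compared (adjusted p = 0.083 to 0.099), where 84 genes were called in all, against 1009 in the fit of 12.

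**Figure D2:**
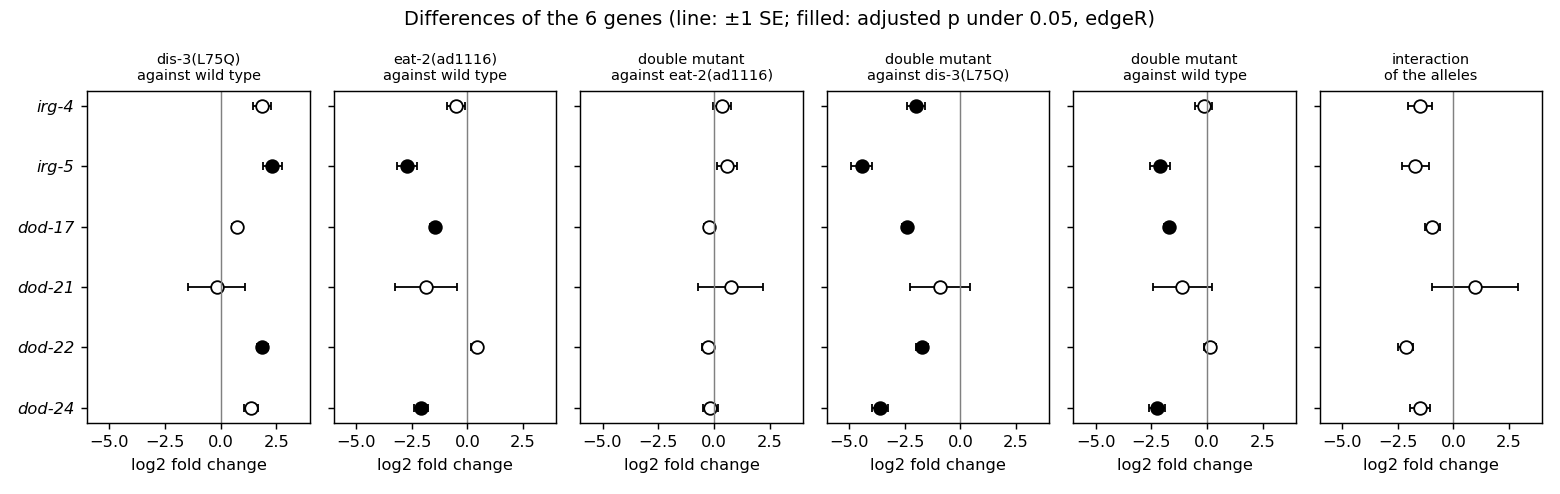
Log2 fold change of each gene in each comparison, with lines for ± 1 SE from edgeR. Filled points passed an adjusted p under 0.05. Between the double mutant and dis-3(L75Q), 5 of 6 genes are called lower, and between the double mutant and eat-2(ad1116) none is called. The SE of dod-21 is the widest in each comparison.

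The double mutant was set against dis-3(L75Q) to show the difference that goes with the eat-2 allele when the exosome allele is present. All of the well-counted genes fell: 5 of 6 were called lower, where 1.24% of all tested genes were called and 0.695% were called lower. irg-5 averaged 2.93 ± 0.844 CPM in the double mutant and 63.1 ± 17.99 CPM in dis-3(L75Q), 21.5-fold lower (log2 -4.43 ± 0.48, adjusted p = 0.0012). dod-24 averaged 10.2 ± 2.41 CPM in the double mutant and 123 ± 26.2 CPM in dis-3(L75Q), 12.0-fold lower (log2 -3.59 ± 0.36, adjusted p = 0.00064). dod-17 averaged 14.4 ± 1.18 CPM in the double mutant and 76.3 ± 13.6 CPM in dis-3(L75Q), 5.31-fold lower (log2 -2.41 ± 0.23, adjusted p = 0.00056). irg-5, dod-17 and dod-24 thus ranked 24th, 19th and 21st by p among the 16259 genes.

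irg-4 and dod-22 fell by less. irg-4 averaged 41.5 ± 7.10 CPM in the double mutant and 166 ± 47.1 CPM in dis-3(L75Q), 4.00-fold lower (log2 -2.0 ± 0.40, adjusted p = 0.039). dod-22 averaged 6.78 ± 0.0215 CPM in the double mutant and 22.4 ± 3.67 CPM in dis-3(L75Q), 3.30-fold lower (log2 -1.72 ± 0.25, adjusted p = 0.0069). The libraries did not overlap for these 5 genes, against 22.2% of all tested genes, and the median log2 fold change of the 6 was -2.20, against 0.05 over all. All 5 calls were kept with the stage covariate, where 4.52% of all genes were called, and without the 3 libraries that stood apart, where 25% were. irg-4 was the least secure: its call was lost when any library other than dis-3(L75Q) replicate 3, eat-2(ad1116) replicate 1 or eat-2(ad1116) replicate 3 was left out (log2 -2.15 to -1.81, adjusted p = 0.051 to 0.21) or low counts were not filtered (adjusted p = 0.057), and that of dod-22 was lost without double mutant replicate 2 or 3 (adjusted p = 0.051).

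Between the double mutant and eat-2(ad1116), which differ in the exosome allele under restricted feeding, 0 of 6 genes passed the test, where 0.351% of all tested genes were called. None had an unadjusted p under 0.05, and DESeq2 and limma-voom called 0 as well. The averages were 2.93 ± 0.844 CPM in the double mutant against 1.94 ± 1.18 CPM in eat-2(ad1116) for irg-5, 41.5 ± 7.10 against 32.2 ± 17.7 for irg-4, and 10.2 ± 2.41 against 11.4 ± 0.996 for dod-24. For dod-17 they were 14.4 ± 1.18 CPM in the double mutant against 16.9 ± 4.60 in eat-2(ad1116), and for dod-22 6.78 ± 0.0215 against 8.26 ± 0.653. A difference is not shown to be absent. The 95% intervals of the log2 fold change ran from -0.27 to 1.48 for irg-5, -0.39 to 1.13 for irg-4, -0.80 to 0.48 for dod-24, -0.67 to 0.21 for dod-17 and -0.76 to 0.20 for dod-22. The libraries did not overlap for dod-22 alone, 1 of 6, against 12.4% of all tested genes. Without the 3 libraries that stood apart dod-17 was called lower (log2 -0.46, adjusted p = 0.02), where 25.1% of all genes were called.

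The comparison of the double mutant with wild type shares the wild type libraries with both single-mutant comparisons. irg-5, dod-24 and dod-17 were again the called genes, 3 of 6, where 4.27% of all tested genes were called and 1.73% were called lower. irg-5 averaged 2.93 ± 0.844 CPM in the double mutant and 12.59 ± 3.33 CPM in wild type, 4.29-fold lower (log2 -2.10 ± 0.44, adjusted p = 0.026). dod-24 was 4.71-fold lower in the double mutant (log2 -2.24 ± 0.34, adjusted p = 0.0045) and dod-17 was 3.23-fold lower (log2 -1.69 ± 0.23, adjusted p = 0.0024). irg-4 and dod-22 had log2 fold changes of -0.14 ± 0.39 (95% interval -0.90 to 0.62) and 0.14 ± 0.25 (-0.34 to 0.62). The libraries did not overlap for the 3 called genes, against 37.2% of all tested genes, and the median log2 fold change of the 6 was -1.40, against 0.02 over all. The 3 calls were kept with the stage covariate. They were also kept without the 3 libraries that stood apart, where 46.9% of all genes were called and stage is not separated from genotype. With the covariate irg-4 stood at -0.83 ± 0.43 (adjusted p = 0.32). The call of irg-5 was lost without wild type replicate 1 or any one double mutant library (log2 -2.36 to -1.92, adjusted p = 0.063 to 0.12).

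The interaction asks whether the dis-3(L75Q) difference changes when the eat-2 allele is present. It was negative for the 5 well-counted genes, and 0 of 6 passed the test, where 0.0615% of all tested genes were called. The largest was dod-22 at log2 -2.15 ± 0.35 (unadjusted p = 7.6e-05, adjusted p = 0.096), which ranked 11th among the 16259 genes. irg-5 had -1.72 ± 0.61, dod-24 -1.51 ± 0.46, irg-4 -1.49 ± 0.55 and dod-17 -0.94 ± 0.32, each with an unadjusted p under 0.05 and an adjusted p of 0.52. The count at an unadjusted p under 0.05 was 5, DESeq2 called 1 (dod-22) and limma-voom 0. The share of all tested genes at that unadjusted threshold is not given here, so the 5 have no background beside them. In the stage lists the median interaction was log2 -1.52 for the molting genes and 1.31 for the oocyte and eggshell genes. The adjusted p fell under the threshold for irg-4, irg-5, dod-17 and dod-22 without eat-2(ad1116) replicate 1 (log2 -1.91, -2.15, -1.18 and -2.24, each adjusted p = 0.03), where 13.5% of all genes were called, and for dod-22 without wild type replicate 1 (log2 -2.56, adjusted p = 0.017). Without the 3 libraries that stood apart the same 4 genes passed, with 53.0% of all genes. The stage covariate moved irg-4 to -0.54, irg-5 to -0.76 and dod-17 to -0.60, and left dod-22 at -2.16.

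**Figure D3:**
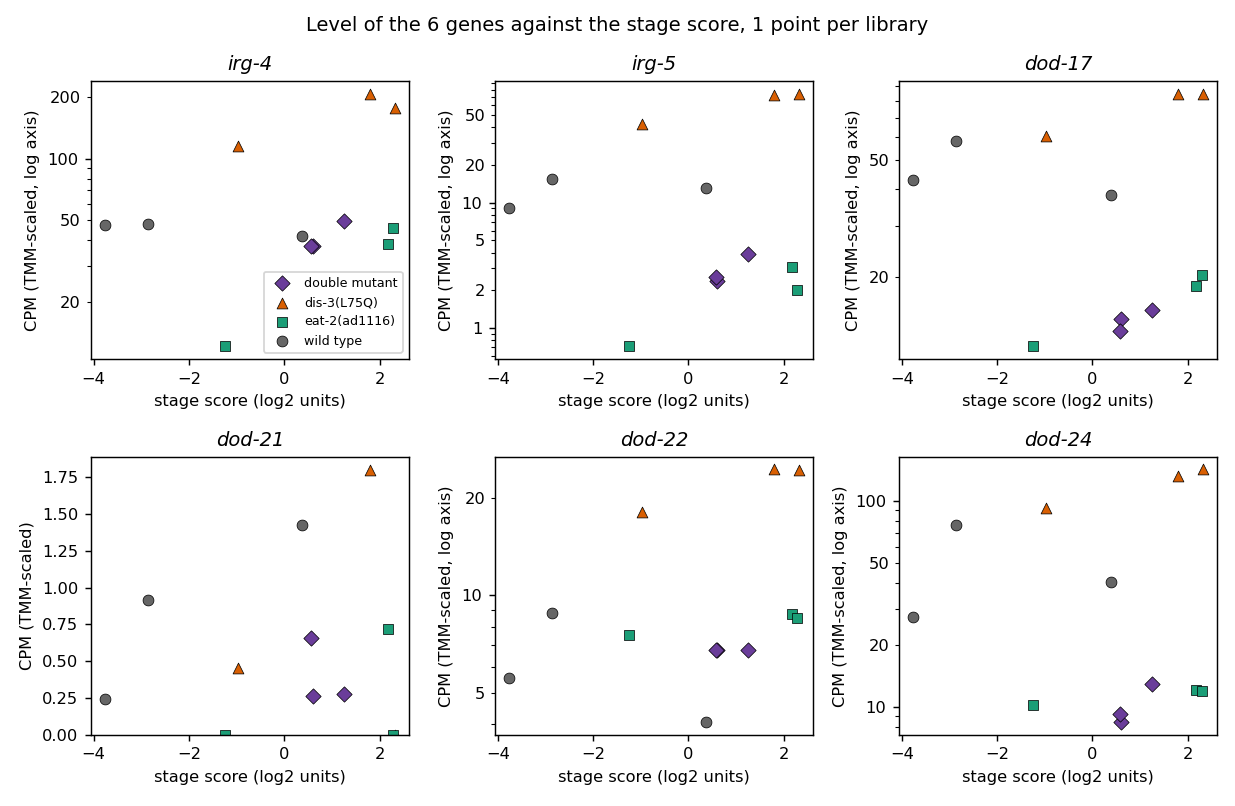
Level of each gene in CPM (log axis, linear for dod-21) against the stage score of the library in log2 units, with 1 point per library and 1 panel per gene. In dis-3(L75Q) and eat-2(ad1116) the library with the lowest score (-0.98 and -1.24) is the lowest of its genotype for all genes but dod-21, while the double mutant libraries lie within 0.57 to 1.26.

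In dis-3(L75Q) and eat-2(ad1116), 1 library each was low in both the stage score and the levels of the well-counted genes. eat-2(ad1116) replicate 1 and dis-3(L75Q) replicate 3 were the lowest libraries of their genotypes for irg-4, irg-5, dod-17, dod-22 and dod-24. In wild type the order did not follow the score: replicate 2, with the highest score there, was the lowest for irg-4, dod-17 and dod-22 and in the middle for irg-5 and dod-24.

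Genes close to the 6 were counted next, as 44 protein-coding genes within 20 kb, of which 36 were tested. Among all tested genes 0.56% were called in dis-3(L75Q) and 6.21% in eat-2(ad1116), both against wild type. The share was 1.24% in the double mutant against dis-3(L75Q). In dis-3(L75Q) against wild type 1 rose and 0 fell. The riser was F55G11.2, whose annotated end is 52 bases from that of dod-22 on the opposite strand, at 74.9 ± 17.1 CPM in dis-3(L75Q) and 22.1 ± 4.13 CPM in wild type (3.38-fold, adjusted p = 0.0026). In eat-2(ad1116) against wild type 2 rose and 5 fell, and F55G11.2 was among those that fell (log2 -1.04, adjusted p = 0.017). It was also 6.75-fold lower in the double mutant than in dis-3(L75Q) (adjusted p = 0.00014), where 1 neighbour rose and 5 fell. The sources used here do not say whether counting used strand, and reads that run past the end of dod-22 or F55G11.2 cannot be assigned with certainty. F55G11.4, 699 bases from dod-17, went the other way. It averaged 154 ± 13.2 CPM in the double mutant, 55.2 ± 2.89 CPM in dis-3(L75Q), 165 ± 34.5 CPM in eat-2(ad1116) and 38.8 ± 6.39 CPM in wild type, 4.25-fold higher in eat-2(ad1116) than in wild type (adjusted p = 8.6e-05), 2.79-fold higher in the double mutant than in dis-3(L75Q) (adjusted p = 0.0012) and 3.97-fold higher in the double mutant than in wild type (adjusted p = 0.00012).

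**Figure D4:**
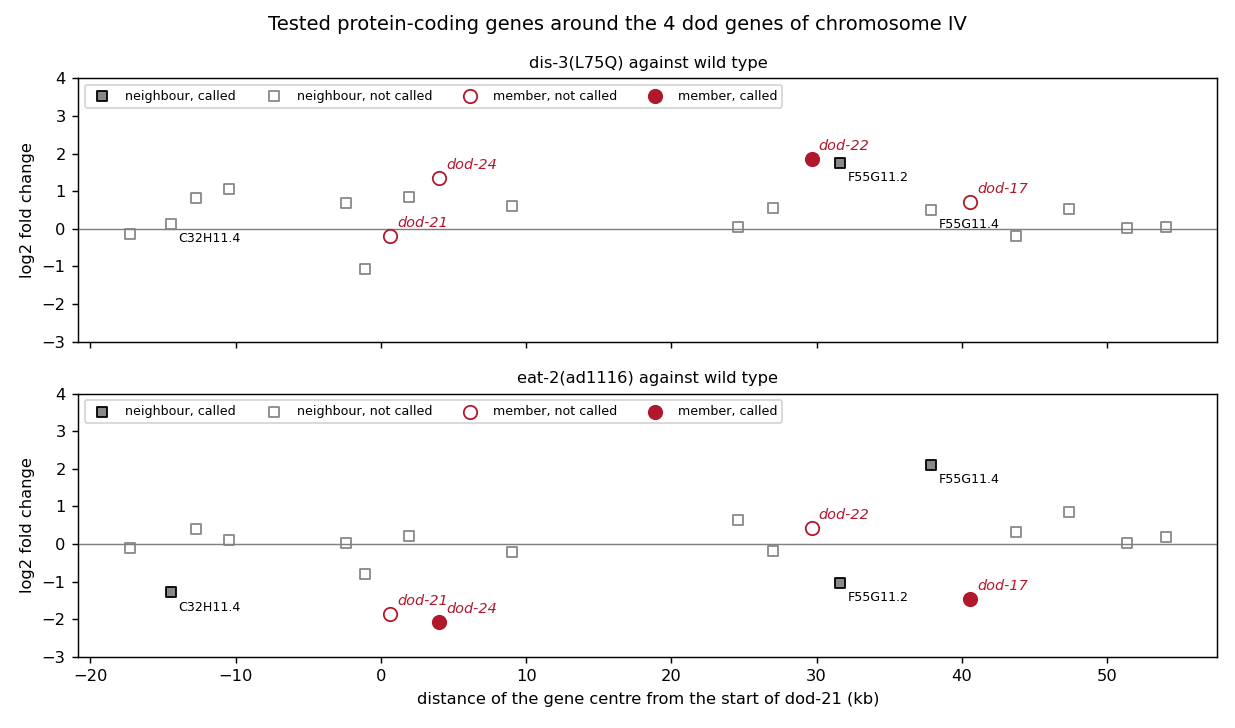
Log2 fold change of tested protein-coding genes around the 4 dod genes of chromosome IV, against the distance of each gene's centre from the start of dod-21 in kb, for dis-3(L75Q) against wild type (top) and eat-2(ad1116) against wild type (bottom). Circles are the dod genes, squares their neighbours, and filled symbols passed an adjusted p under 0.05. In eat-2(ad1116), F55G11.4 is higher and lies next to dod-17, which is lower.

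Near irg-5 on chromosome V, F35E12.10 and dct-17 fell with the eat-2 allele. F35E12.10 had 42.7 ± 2.24 CPM in the double mutant, 102 ± 8.95 CPM in dis-3(L75Q), 44.4 ± 5.46 CPM in eat-2(ad1116) and 98.4 ± 6.60 CPM in wild type, with a log2 fold change of -1.15 for eat-2(ad1116) over wild type (adjusted p = 0.00028), -1.25 for the double mutant over dis-3(L75Q) (adjusted p = 0.00022) and -1.21 for the double mutant over wild type (adjusted p = 2e-04). dct-17, itself an infection response gene, was 3.01-fold lower in eat-2(ad1116) than in wild type (adjusted p = 0.003) and 3.91-fold lower in the double mutant than in wild type (adjusted p = 0.00065). With both alleles, 1 neighbour rose and 6 fell against wild type, where 4.27% of all tested genes were called. The 6 included F55G11.2 (log2 -1, adjusted p = 0.024). Against eat-2(ad1116) 0 neighbours were called in the double mutant (5 with an unadjusted p under 0.05, 0 by DESeq2 and 0 by limma-voom), where 0.351% of all tested genes were. The median log2 fold change of the neighbours was 0.17 in dis-3(L75Q) and 0.02 in eat-2(ad1116), both relative to wild type, and -0.20 in the double mutant relative to dis-3(L75Q), next to 0.02, -0.01 and 0.05 over all tested genes.

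For each gene, the closest patterns over the 12 libraries were looked up among 10730 genes with a mean of at least 5 CPM, the 6 genes themselves left out, by Pearson's r of log2 CPM. The 12 points share their genotype in sets of 3, so these values are a description. irg-5, dod-17 and dod-24 shared a best or second-best match in F35E12.6 (r = 0.983, 0.986 and 0.980), a gene 762 bases from irg-5. R102.4 was close to dod-17 (0.995) and dod-24 (0.973), and the C-type lectin gene clec-3 to irg-5 (0.983) and dod-24 (0.967). The third match was the glutathione S-transferase gene gst-10 for irg-5 (0.979) and mrps-26 for dod-17 (0.972). irg-4 had other matches, C05D11.1 (0.973), M03B6.1 (0.956) and D1054.8 (0.955). dod-22 was matched less closely, by T10D4.6 (0.927), the lectin gene clec-52 (0.90) and F55G11.8 (0.843), a neighbour in the dod cluster. No close match was found for dod-21, whose best r was 0.781, with M01G12.9, before hrpl-1 (0.721) and F15E6.6 (0.698).

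Calls in the rest of the irg and dod classes were counted too. The share of all tested genes called was 6.21% in eat-2(ad1116) against wild type. For the double mutant it was 4.27% against wild type and 1.24% against dis-3(L75Q). Of 6 other irg genes, 5 were tested, and 1 call was made in all comparisons together: irg-1, which responds to translation block through ZIP-2, was lower in the double mutant at 3.22 ± 0.539 CPM than in wild type at 10.7 ± 4.75 CPM (log2 -1.73 ± 0.39, adjusted p = 0.036). Of 6 other dod genes, dod-3 and dod-6 rose in eat-2(ad1116) against wild type. dod-3 had 4.50 ± 1.23 CPM in eat-2(ad1116) and 0.270 ± 0.0736 CPM in wild type, 16.4-fold higher (adjusted p = 0.00012). It was also 13.7-fold higher in the double mutant than in dis-3(L75Q) (adjusted p = 0.00022) and 22-fold higher in the double mutant than in wild type (adjusted p = 6.7e-05). dod-6 was 2.23-fold higher in eat-2(ad1116) (adjusted p = 0.049), a call that was lost in 15 of 22 alternatives. That of irg-1 was lost in 10 of 22.

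Other effectors of the infection response, 29 genes of which all were tested, went in both directions. As background, 0.56% of all tested genes were called in dis-3(L75Q) and 6.21% in eat-2(ad1116), both against wild type. For the double mutant the shares were 0.351% against eat-2(ad1116), 1.24% against dis-3(L75Q) and 4.27% against wild type. In dis-3(L75Q) against wild type 1 rose and 1 fell: the lectin gene clec-60 was 2.57-fold higher (adjusted p = 0.015) and ZK896.5 was 2.43-fold lower (adjusted p = 0.0052). That clec-60 call was lost in 8 of 22 alternatives. In eat-2(ad1116) against wild type 9 rose and 1 fell, and the 3 calls with the smallest p were higher: the lysozyme gene lys-7 by 4.18-fold (adjusted p = 1.4e-05), clec-60 by 8.98-fold (adjusted p = 2.4e-05) and the lectin gene clec-4 by 4.05-fold (adjusted p = 0.00056). In the double mutant against dis-3(L75Q) 4 rose, lys-7 by 3.99-fold, clec-60 by 4.25-fold and the lysozyme gene ilys-3 by 6.97-fold among them (adjusted p = 2.4e-05, 0.00039 and 0.0094), and 2 fell. The call of ilys-3 was lost in 3 of 22 alternatives. Between the double mutant and eat-2(ad1116) 0 rose and 2 fell, ZK896.5 by 2.22-fold (adjusted p = 0.013) and the flavin monooxygenase gene fmo-2 by 6.60-fold (adjusted p = 0.019), calls that were lost in 5 of 22 and 5 of 21 alternatives. With both alleles, 6 rose against wild type, lys-7 by 4.64-fold and clec-60 by 10.9-fold among them (adjusted p = 1.1e-05 for each). In the same comparison 5 fell, dct-17 by 3.91-fold among them (adjusted p = 0.00065). Some of these folds rest on low levels. clec-60 averaged 0.458 CPM in wild type (lowest library 14 counts) and ilys-3 0.274 CPM in dis-3(L75Q) (lowest 7 counts). fmo-2 averaged 0.310 CPM in the double mutant (lowest 8 counts), whereas lys-7 had at least 1527 counts in each wild type library.

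The genes known to control such effectors were followed at the level of their RNA, and the activity of their proteins was not measured. As background, edgeR called 6.21% of the tested genes for eat-2(ad1116) over wild type. For the double mutant it called 4.27% over wild type and 1.24% over dis-3(L75Q). Whether the counts below differ from these shares was not tested. Of 14 genes of the p38 PMK-1 pathway and its regulators, 1 was called in any comparison: the pseudokinase gene nipi-3 was 1.53-fold higher in the double mutant than in wild type (adjusted p = 0.042). Of 12 genes of insulin signalling with DAF-16 and PQM-1, 2 rose in eat-2(ad1116) against wild type. The zinc finger factor gene pqm-1 had 27.2 ± 5.87 CPM in eat-2(ad1116) and 11.7 ± 1.80 CPM in wild type (2.33-fold, adjusted p = 0.0043), and the insulin receptor gene daf-2 was 1.58-fold higher (adjusted p = 0.045). pqm-1 was also 2.01-fold higher in the double mutant than in dis-3(L75Q) (adjusted p = 0.018) and 2.30-fold higher in the double mutant than in wild type (adjusted p = 0.0036). Of 14 intestinal and immune transcription regulators 1 was called, the bZIP gene zip-2, 1.61-fold higher in eat-2(ad1116) than in wild type (adjusted p = 0.03). In that comparison DESeq2 called 3 of the p38 list and 3 of the intestinal and immune regulators, where it called 14% of all genes. The numbers by limma-voom were 0 and 1, where it called 5.5% of all genes. The calls of daf-2, nipi-3 and zip-2 were lost in 14, 11 and 10 of 22 alternatives, and that of pqm-1 in the double mutant over dis-3(L75Q) in 6 of 22. Among the 15 intestinal markers 0 were called between dis-3(L75Q) and wild type (1 with an unadjusted p under 0.05, 0 by DESeq2 and 0 by limma-voom) and 1 rose in eat-2(ad1116) against wild type, with a median log2 fold change of 0.08 and 0.07.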

How the data were processed

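Per the file headers, the authors deposited expected counts (estimated fragments of each gene), which are scaled to neither depth nor length. STAR 2.7.0e, RSEM 1.3.1 and the builds WBcel235 and ce11 are named in the submitters' processing notes. Neither the annotation used in counting nor its strand setting is given in the sources used here. Of the values above 0, 93.4% to 93.8% were exactly whole in each library (tolerance 0), and all were rounded to whole numbers. Names, positions and exon lengths come from Ensembl release 115 of WBcel235 (46924 of 46934 identifiers matched).

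All 12 libraries were fitted together with edgeR 4.0.16 in R 4.3.3 (robust quasi-likelihood F test, two-sided, TMM scaling with factors of 0.9284 to 1.139, filterByExpr by genotype, a term for genotype alone), and p-values were adjusted by Benjamini-Hochberg over 16259 genes within each comparison. A gene was called at an adjusted p under 0.05. The SE is the log2 fold change divided by the root of F. The 95% intervals take that SE with the normal distribution, so with few libraries they are narrower than the F test implies. The code was tested on simulated data. Intervals and floors (3 counts) cover counting and replicate error as fitted and no other source. Alternatives were other scalings, DESeq2 1.42.0, limma-voom (limma 3.58.1), other filters, a fit of the compared libraries, a replicate block, a stage covariate, and omitted libraries. Plots were drawn with matplotlib 3.10.9.

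The 6 genes, the gene lists and the alternatives were chosen with earlier results of these data known. From each list the text names at most the 3 called genes with the smallest p per comparison, and F55G11.2 also where it was called without being among them, chosen after its values were seen. No sequences were used.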

Additional observations from a re-analysis of the deposited data

Results flagged for a closer look

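dod-22 was singled out because its libraries were separated in opposite directions by dis-3(L75Q) with and without the eat-2 allele. All 3 double mutant libraries (6.76 to 6.80 CPM) were below all 3 eat-2(ad1116) libraries (7.52 to 8.74 CPM), while all 3 dis-3(L75Q) libraries (18.2 to 24.5 CPM) were above all 3 wild type libraries (4.05 to 8.85 CPM). The lower side was small and did not pass the test (log2 -0.28 ± 0.25, 95% interval -0.76 to 0.20, adjusted p = 1), and 12.4% of all tested genes did not overlap there. The double mutant libraries held 223, 231 and 226 counts. So close an agreement of 3 libraries is a poor measure of the spread of that genotype, and the separation rests on it. The fold changes of dod-24 (-0.16 with the eat-2 allele, 1.35 without) and dod-17 (-0.23 and 0.71) also had opposite signs, with libraries that overlapped on the lower side. The test of the difference itself gave an interaction of log2 -2.15 ± 0.35 (95% interval -2.83 to -1.47) and an adjusted p of 0.096 by edgeR, which does not pass.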

How the results depend on the processing

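Over the alternatives, 715 of 779 recomputed values of the 6 genes kept their direction and their side of the threshold. Many of these belong to differences not called as reported, and the alternatives reuse the same libraries, so this share does not measure how stable the calls were. The calls of irg-5 in dis-3(L75Q) over wild type and irg-4 in the double mutant over dis-3(L75Q) each held in 11 of 22. Those of irg-5, dod-17 and dod-24 in the double mutant over dis-3(L75Q) each held in 22 of 22. Between dis-3(L75Q) and wild type 2 of 6 genes were called, which became 5 without the 3 libraries apart on stage, 4 with DESeq2, and 1 in a fit of only the libraries compared (irg-4 in place of irg-5 and dod-22), with the replicate block or with the stage covariate (dod-22 in each); leaving out each library gave 1 to 3. The 5 called between the double mutant and dis-3(L75Q) became 3 to 5 with a library left out, and the 3 between the double mutant and wild type became 2 to 3. The 3 called between eat-2(ad1116) and wild type became 0 in the fit of only the libraries compared. The 0 between the double mutant and eat-2(ad1116) became 1 without the 3 libraries. In the interaction, 0 became 4 without the 3 libraries, 1 with DESeq2, and 0 to 4 with a library left out. The causes were not tested.

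Without the 3 libraries, direction reversed for dod-21 between dis-3(L75Q) and wild type (0.66) and in the interaction (-0.53), for dod-22 between the double mutant and wild type (-0.10) and for irg-4 between the double mutant and eat-2(ad1116) (-0.04), none of them called. dod-21 between the double mutant and dis-3(L75Q) became 0.64 with limma-voom. With a library left out, dod-21 ran from -1.89 to 0.39 between dis-3(L75Q) and wild type and from -1.49 to 0.79 between the double mutant and dis-3(L75Q), dod-22 from -0.08 to 0.48 between the double mutant and wild type, and irg-4 from -0.05 to 0.72 between the double mutant and eat-2(ad1116). All were log2 fold changes under the threshold.

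Same-numbered replicates did not pair: their deviations correlated at -0.63 to 0.42 over genes, and 2 of 12 libraries correlated best with their own number. With the replicate block the called genes numbered 1, 3, 0, 4, 2 and 0 of 6 in the comparisons dis-3(L75Q) and eat-2(ad1116) against wild type, the double mutant against eat-2(ad1116), dis-3(L75Q) and wild type, and the interaction. The calls lost were irg-5 over wild type in dis-3(L75Q) (adjusted p = 0.10) and in the double mutant (0.053), and irg-4 in the double mutant over dis-3(L75Q) (0.11).

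Over all genes, in that order of comparisons, edgeR called 91, 1009, 57, 202, 695 and 10, and DESeq2 338, 2284, 174, 608, 1798 and 52. The block called 62, 496, 25, 115, 392 and 4, and the omission of 3 libraries 8442, 9589, 4117, 4094, 7683 and 8677. The fit of only the libraries compared called 30, 84, 31, 255 and 1432 in the first 5. Library totals alone called 1714 between eat-2(ad1116) and wild type and 1046 between the double mutant and wild type, and put the median log2 fold change of all genes at 0.16 between the double mutant and dis-3(L75Q), against 0.05 as reported. The stage covariate called 172 between the double mutant and eat-2(ad1116) and 735 between the double mutant and dis-3(L75Q). The readings of dod-21 are limited by low and scattered counts, at 0 to 55 per library, and the cause of the scatter was not tested.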
